A study of Mus musculus with 32 samples.

Results

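The suppressor of cytokine signalling (SOCS) family was described in BV-2 cells, an immortalised mouse microglial line, as the 8 genes Socs1, Socs2, Socs3, Socs4, Socs5, Socs6, Socs7 and Cish. They were chosen by symbol from the 45706 genes of the deposited table, and all 8 were present in it. The 32 RNA-seq libraries formed 8 groups of 4. Cells received lipopolysaccharide (LPS, 10 ng/ml) or vehicle for 24 h and a transfected microRNA mimic. The mimic was a scramble control, miR-7a-5p, the miR-29a-3p arm or the miR-146a-5p arm, and each was used with vehicle and with LPS. All groups shared a genotype given as wild-type, the cell line and the transfection itself, and no group without transfection was analysed here. The labels place LPS before the transfection and the study's methods place it after, so the order is uncertain. The labels call the line a glioblastoma line, and a label gives an age of mice, which was set aside for a cell line. The study's methods describe the replicates as independent experiments.

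SOCS proteins are negative feedback inhibitors of cytokine receptors that signal through Janus kinases (JAK) and STAT transcription factors. STATs switch on SOCS genes, and the new proteins bind the receptor or the kinase through an SH2 domain and recruit a ubiquitin ligase through the SOCS box. In macrophages and microglia, Socs3 is best known for restraining interleukin-6 signalling through gp130, Socs1 for restraining interferon signalling, and Cish and Socs2 as targets of STAT5 below growth hormone, GM-CSF and related cytokines. Socs4, Socs5, Socs6 and Socs7 are less often induced by cytokines and have been linked to receptor tyrosine kinases and insulin signalling.

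The 3 mature microRNAs are shown because their seeds, bases 2 to 8 from the 5′ end and written in capitals, decide which messages they can pair with. The sequences were taken from RefSeq (GRCm38.p6), and no seed is shared between them. The miR-7a-5p sequence lies at chr7:78888295-78888317 on the plus strand and at chr13:58392841-58392863 on the minus strand. The miR-29a-3p sequence lies at chr6:31062673-31062694 and the miR-146a-5p sequence at chr11:43374435-43374456, both on the minus strand.
mmu-miR-7a-5p: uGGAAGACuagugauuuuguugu
mmu-miR-29a-3p: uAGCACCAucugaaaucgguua
mmu-miR-146a-5p: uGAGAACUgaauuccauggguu

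Matches to the reverse complement of these seeds (GTCTTCC for miR-7a, TGGTGCT for miR-29a and AGTTCTC for miR-146a) were searched in the longest annotated 3′ UTR of each member. Only Socs7, Socs1 and Socs6 held any. Socs7, with a 3′ UTR of 5184 bases, held 1 site for miR-7a, 2 for miR-29a and 1 for miR-146a. Among the 916 coding genes with a 3′ UTR of like length, 32.5%, 41.7% and 38.6% held at least 1 site for the same microRNAs, and 10.5% held at least 2 for miR-29a. Socs1 held 2 sites for miR-29a. Of 3′ UTRs of like length, 17.4% held at least 1 such site and 1.93% held at least 2. Socs6 held 1 site for miR-146a, and 29.8% of 3′ UTRs of like length held at least 1. Socs2, Socs3, Socs4, Socs5 and Cish held no 7-base match, which says only that these letters were not in the annotated 3′ UTR. The sites in Socs7 and Socs1 are shown with 10 bases on either side because each mimic could pair with the member there, and the capitals mark the match. The Socs6 site is not shown here. The Socs7 sites lie on the plus strand of GRCm38 at chr11:97398031-97398037 for miR-7a, at chr11:97397762-97397768 and chr11:97397844-97397850 for miR-29a, and at chr11:97394080-97394086 for miR-146a. The Socs1 sites lie on the minus strand at chr16:10784033-10784039 and chr16:10783135-10783141.
Socs7, miR-7a: cctggcttttGTCTTCCcatttagttt
Socs7, miR-29a, first site: cctccatcccTGGTGCTcccaagaggg
Socs7, miR-29a, next site: ggtgctgcacTGGTGCTgcatagcaca
Socs7, miR-146a: aggcaaacccAGTTCTCcctgccctca
Socs1, miR-29a, first site: gctcccctccTGGTGCTccctccgggt
Socs1, miR-29a, next site: tctgaagcaaTGGTGCTgttaggagcc

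Promoters, from 250 bases before to 50 after the RefSeq start, were matched for Socs1, Socs3, Socs4 and Cish. The STAT-type motif TTCNNNGAA, read on both strands, occurred in 1 place in Socs3 and in 2 places in Cish, and was absent from the Socs1 and Socs4 windows. Of 32851 RefSeq promoters, 8.3% held it. These windows are shown because Socs3 and Cish were the members that moved most with LPS, and the capitals mark the motif. The Socs3 window is chr11:117969504-117969528 on the minus strand. The Cish windows, which overlap, are chr9:107296651-107296675 and chr9:107296662-107296686 on the plus strand (all GRCm38.p6).
Socs3: aaccagccTTCTTAGAAgggagggg
Cish, upstream match: gcccagttTTCCTGGAAagttcttg
Cish, downstream match: ctggaaagTTCTTGGAAatctgtca
The same motif with 1 more base in its centre (6.95% of promoters) and the NF-kappa-B consensus (0.155%) occurred in none of the 4 promoters. The core of the interferon-stimulated response element occurred in 2 overlapping places in Socs1 and in none of the other promoters, against 3.44% of all. A match describes letters and does not show that a factor bound there.

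Depth ranged from 1160510 to 20285700 estimated counts per library. The 4 LPS groups were deeper on average (7732020 to 12406658 counts) than the 4 vehicle groups (2600860 to 6196805 counts). Depth thus moved with the LPS comparisons, and its part in them was not tested. Of the vehicle miR-7a libraries, replicates 2, 3 and 4 stood apart, with 39.9%, 36.1% and 38.6% of their counts in short structural RNAs against 2.74% to 19.4% in the other 29 libraries. The fitted values of Socs3, Socs6 and Cish with miR-7a, the ratio and the spread of group means are given with and without them. Other levels, correlations and genes of the route with miR-7a are given with them. No pair of libraries was identical. Of 11 usable markers of microglia or macrophages, 8 had a median of at least 1 count per 1000000 counts (CPM), led by Cd68, Ptprc and Fcgr3. Csf1r, Cx3cr1 and C1qa, which define microglia in tissue, were near 0, with medians of 0.642, 0.621 and 0.390 CPM. The summed level of the 11 markers ran from 2644 to 4412 CPM with vehicle and from 1745 to 3356 CPM with LPS, and the part of this shift in the LPS comparisons was not tested. The astrocyte and glioma markers summed to at most 2.23 CPM, the neuronal markers to 3.11, the endothelial markers to 3.54 and the oligodendrocyte markers to 18.5, mostly Mbp.

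Of the 8 members, 7 were detected in every library and Socs1 was at or near the detection limit. Levels between genes were compared as CPM per kilobase of annotated exon, averaged over the 8 group means. On that pooled scale Socs3 was the most abundant member, at 12.6 CPM per kb, a level above that of 84.1% of 21519 coding genes. Socs6 followed at 6.67 CPM per kb, Socs4 at 5.30, Socs7 at 4.55, Socs5 at 2.95, Cish at 2.68 and Socs2 at 1.37. Socs1 stood at 0.0832 CPM per kb. This order rests on the length of all annotated exons joined, which can exceed that of a single message. Without the length, Socs6 had a mean of 75.7 CPM and Socs3 of 36.5 CPM. The order per kb also depended on the condition. Socs3 led in the 4 LPS groups (14 to 24.4 CPM per kb) and, by less, in the vehicle groups with scramble (6.96, against 6.54 for Socs6) and miR-29a (8.18, against 6.73). Socs6 lay above Socs3 in the vehicle groups with miR-146a (10.5 against 5.34 CPM per kb) and miR-7a (6.83 against 5.05). Cish lay above Socs5 in the vehicle groups with scramble (3.49 against 2.77 CPM per kb), miR-7a and miR-29a, and below it in the other groups. The members also differed in how far their group means spread. The highest group mean was 6.5 times the lowest for Cish, 4.83 times for Socs3, 2.57 times for Socs6 and 2.06 times for Socs2. It was only 1.70, 1.66 and 1.33 times the lowest for Socs5, Socs4 and Socs7. Without vehicle miR-7a replicates 2, 3 and 4 the ratio was 5.95 for Cish, 4.57 for Socs3 and 1.84 for Socs2, and it moved by less than 0.01 for the others named here. On GRCm38 the members lie at chr11:117966079-117970047 (Socs3, minus strand), chr14:47276931-47296102 (Socs4, plus), chr11:97362551-97398542 (Socs7, plus), chr17:87107679-87137839 (Socs5, plus), chr9:107296026-107302784 (Cish, plus), chr10:95385362-95417180 (Socs2, minus) and chr16:10782240-10785536 (Socs1, minus), and Socs6 is on chromosome 18.

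**Figure D1:**
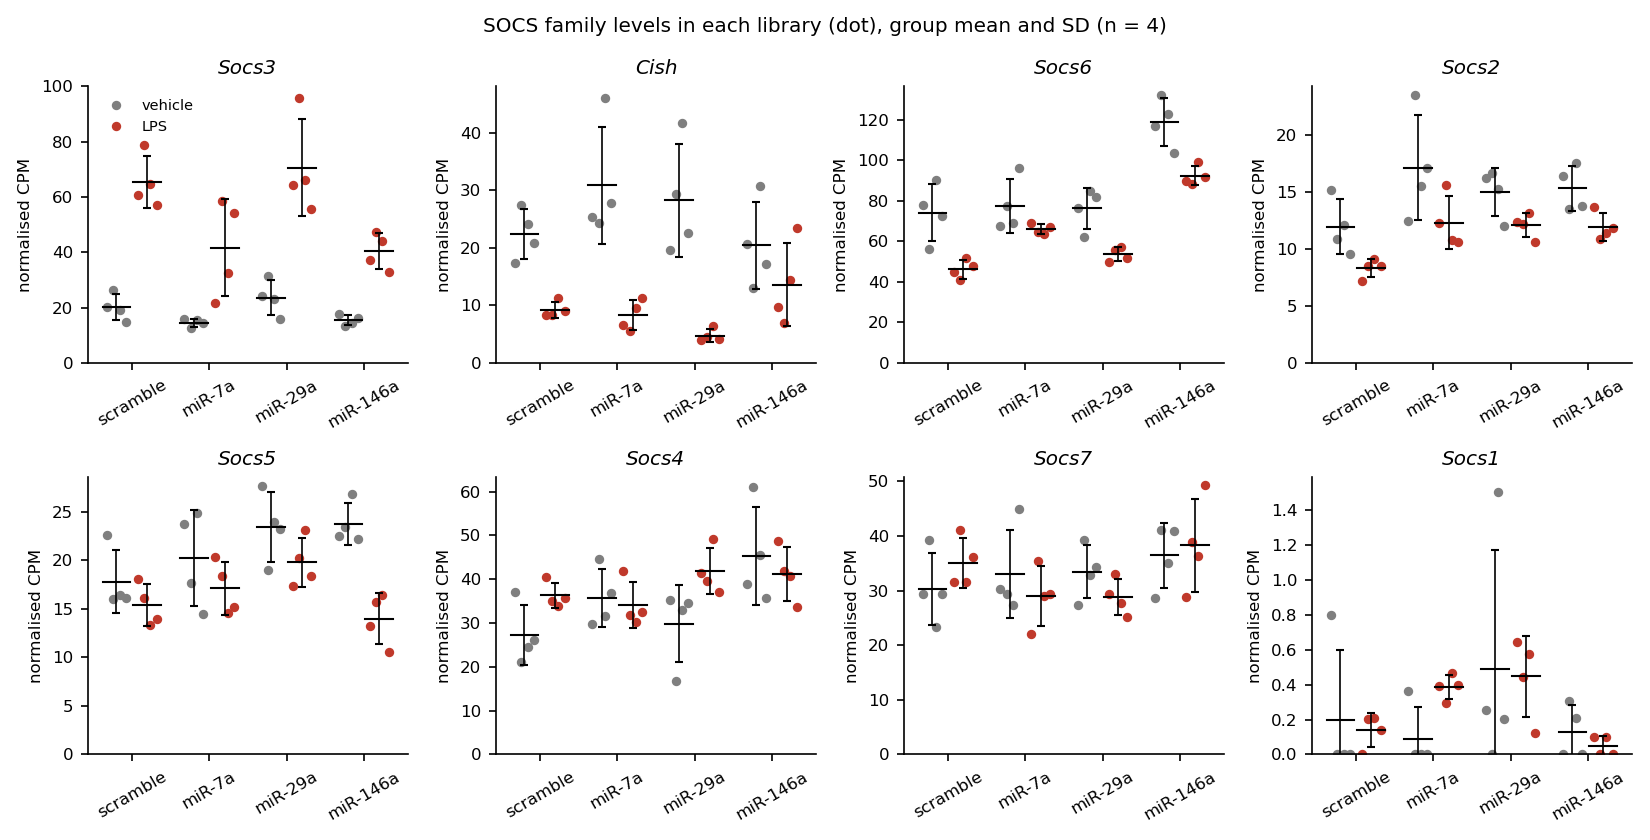
Level of each SOCS member (y axis, normalised CPM, starting at 0) in each of the 32 libraries, grouped by transfected mimic (x axis), with vehicle in grey and LPS in red. Dots are libraries, horizontal lines are group means and bars are SD (n = 4). The LPS dots lie above the vehicle dots for Socs3 in 15 of 16 libraries and below them for Cish in 14 of 16, while Socs6 is highest in both miR-146a groups.

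The first question was how the family responded to LPS in cells with the scramble control. Socs3 rose and Cish and Socs6 fell, and the other 4 tested members did not pass the test. Called here means an adjusted p under 0.05 and an absolute log2FC above 0.3, and the main fits held no term for the replicate number. In this comparison 17.9% of all tested genes were called, against 3 of the 7 tested members. The normalised level of Socs3, the feedback inhibitor of gp130 cytokines, was 20.4, 26.3, 19 and 14.8 CPM in the vehicle libraries (replicates 1 to 4). It was 60.8, 78.6, 64.6 and 57.1 CPM in the LPS libraries. The groups did not overlap, and the lowest LPS library lay above the highest vehicle library. The fitted change was 3.36-fold (log2FC = 1.75, SE 0.194, 95% confidence interval 1.32 to 2.17, adjusted p = 0.000196 by limma-voom with Benjamini-Hochberg adjustment over 12021 genes).

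The level of Cish, a STAT5 target that restrains cytokine receptors, went the other way. It was 17.3, 27.5, 24.1 and 20.8 CPM with vehicle and 8.32, 8.42, 11.2 and 8.95 CPM with LPS. Every LPS library lay below every vehicle library. The fitted level with LPS was 57.3% lower (log2FC = -1.23, SE 0.193, interval -1.65 to -0.81, adjusted p = 0.00135 by limma-voom). The Cish gene overlaps the annotated genes Gm17041 and Gm17040 on the opposite strand, and the strand setting of the counting is not given in the sources used here, so reads of these genes cannot be told apart. In bulk RNA, fewer cells with the message and less message per cell cannot be told apart either.

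Socs6, linked to receptor tyrosine kinase turnover, was at 77.8, 56.3, 90.2 and 72.4 CPM with vehicle and at 44.8, 40.9, 51.8 and 47.7 CPM with LPS. The groups did not overlap, although vehicle replicate 2 was close to the highest LPS library. The level was 37.5% lower with LPS (log2FC = -0.68, SE 0.160, interval -1.03 to -0.33, adjusted p = 0.0139 by limma-voom). Socs6 overlaps the gene models AC122398.2 and AC122398.3 on the same strand and AC118614.1 on the opposite strand, so part of its count is uncertain. The calls of Socs3, Cish and Socs6 held when any of the 8 libraries was left out.

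Socs2, also a STAT5 target, was at 15.2, 10.9, 12.2 and 9.61 CPM with vehicle and at 7.23, 8.51, 9.18 and 8.52 CPM with LPS. These ranges did not overlap, yet the change missed the threshold (log2FC = -0.47, interval -0.89 to -0.05, adjusted p = 0.112 by limma-voom). Socs4 had a log2FC of 0.39 (interval 0.01 to 0.77, adjusted p = 0.142 by limma-voom). The numbers of the scramble libraries marked paired samples, and with the replicate number as a block Socs4 passed, at a log2FC of 0.42 and adjusted p = 0.0454, while the genes called rose from 2151 to 3642. Without vehicle replicate 1 the Socs4 log2FC was 0.53 (adjusted p = 0.0298). Over 7 alternatives that kept all libraries, its adjusted p ran from 0.0454 to 0.295, and with the values as deposited it was 0.537. Socs5 and Socs7 had log2FC values of -0.27 and 0.24 (adjusted p = 0.315 and 0.376 by limma-voom). Socs1 did not reach the count filter in this or any other comparison.

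The next question was whether the LPS response held in cells carrying each mimic. With miR-29a the same members passed the test. The level of Socs3 was 24.1, 31.4, 23.2 and 15.9 CPM with vehicle and 64.4, 95.9, 66.1 and 55.7 CPM with LPS. The groups were again apart, at a 3.11-fold change (log2FC = 1.64, SE 0.224, adjusted p = 0.000342 by limma-voom). Cish was at 19.5, 29.4, 41.6 and 22.5 CPM with vehicle and at 4.03, 4.46, 6.39 and 4.12 CPM with LPS. These 4 LPS libraries held the lowest group mean of Cish in the series, 4.75 ± 1.11 CPM (SD, n = 4), and the level was 82.3% lower than with vehicle (log2FC = -2.50, SE 0.276, interval -3.10 to -1.90, adjusted p = 8.29e-05 by limma-voom). Socs6 fell from 76.4 ± 10.1 to 53.6 ± 3.5 CPM (SD, n = 4), with no overlap of the groups (log2FC = -0.54, SE 0.135, adjusted p = 0.0112 by limma-voom). Without the filter on low counts its adjusted p was 0.0515. The 3 of 7 members called compare with 26.5% of all genes tested, and each call held when any library was left out. Socs4 missed the threshold at a log2FC of 0.45 (interval 0.00 to 0.90, adjusted p = 0.124 by limma-voom), as did Socs2, Socs5 and Socs7, whose log2FC values ran from -0.28 to -0.23.

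With miR-7a, Cish was the only member called, 1 of 7, against 6.54% of all genes. Cish was at 25.4, 24.4, 46.0 and 27.7 CPM with vehicle and at 6.56, 5.62, 9.62 and 11.2 CPM with LPS. No LPS library reached the vehicle range, and the level was 72.4% lower (log2FC = -1.86, SE 0.284, adjusted p = 0.00248 by limma-voom). Without vehicle replicates 2, 3 and 4, a setting chosen after seeing the data that leaves 1 vehicle library assumed to vary like the LPS group, the log2FC of Cish was -1.66, the adjusted p was 0.136 and no member passed. Socs3 was at 15.8, 12.6, 15.5 and 14.5 CPM with vehicle and at 21.6, 58.5, 32.6 and 54.0 CPM with LPS. All LPS libraries were above all vehicle libraries, but they spread from 21.6 to 58.5 CPM, the widest range of Socs3 in any group relative to its mean. The 2.53-fold difference missed the threshold (log2FC = 1.34, SE 0.420, interval 0.43 to 2.25, adjusted p = 0.0832 by limma-voom). It passed without LPS replicate 1 (log2FC = 1.59, adjusted p = 0.0147 by limma-voom), by edgeR's quasi-likelihood test (1.48, adjusted p = 0.00976) and by DESeq2 (1.49, adjusted p = 0.000236). These tools called 887 and 1242 genes in all, against 761 by limma-voom. Over the 7 alternatives that kept all libraries its adjusted p ran from 0.000236 to 0.0776. Without the 3 vehicle libraries the log2FC of Socs3 was 1.29 (adjusted p = 0.421 by limma-voom). Socs6, at a log2FC of -0.18 (interval -0.50 to 0.14, adjusted p = 0.557 by limma-voom), did not pass, with 77.6 ± 13.2 CPM with vehicle and 66.1 ± 2.38 CPM with LPS (SD, n = 4). Its log2FC was -0.05 without the 3 vehicle libraries (adjusted p = 0.958 by limma-voom).

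With miR-146a, Socs3 rose and Socs5 fell, 2 of 7 members, against 4.52% of all genes. The level of Socs3 was 17.7, 13.4, 14.5 and 16.2 CPM with vehicle and 37.2, 47.3, 44.0 and 32.9 CPM with LPS. The groups were separate, at a 2.69-fold change (log2FC = 1.43, SE 0.185, interval 1.03 to 1.83, adjusted p = 0.000717 by limma-voom), and the call held without any library. Socs5, a member with a long N-terminal region, was at 22.5, 23.4, 26.9 and 22.2 CPM with vehicle and at 13.2, 15.7, 16.5 and 10.6 CPM with LPS. These ranges were also apart, and the level was 41.0% lower (log2FC = -0.76, SE 0.186, adjusted p = 0.0343 by limma-voom). The Socs5 call was lost when any 1 of the 8 libraries was left out, with adjusted p from 0.0517 to 0.148, and without the filter on low counts (adjusted p = 0.181). Cish was at 20.7, 13.1, 30.6 and 17.2 CPM with vehicle and at 9.68, 7.0, 14.4 and 23.4 CPM with LPS. LPS replicates 3 and 4 lay within the vehicle range, and the difference missed the threshold (log2FC = -0.84, SE 0.341, interval -1.58 to -0.11, adjusted p = 0.207 by limma-voom). Socs6 was at 119 ± 11.9 CPM with vehicle and at 92.3 ± 4.66 CPM with LPS (SD, n = 4), a log2FC of -0.38 (interval -0.65 to -0.11) that did not pass (adjusted p = 0.110 by limma-voom).

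**Figure D2:**
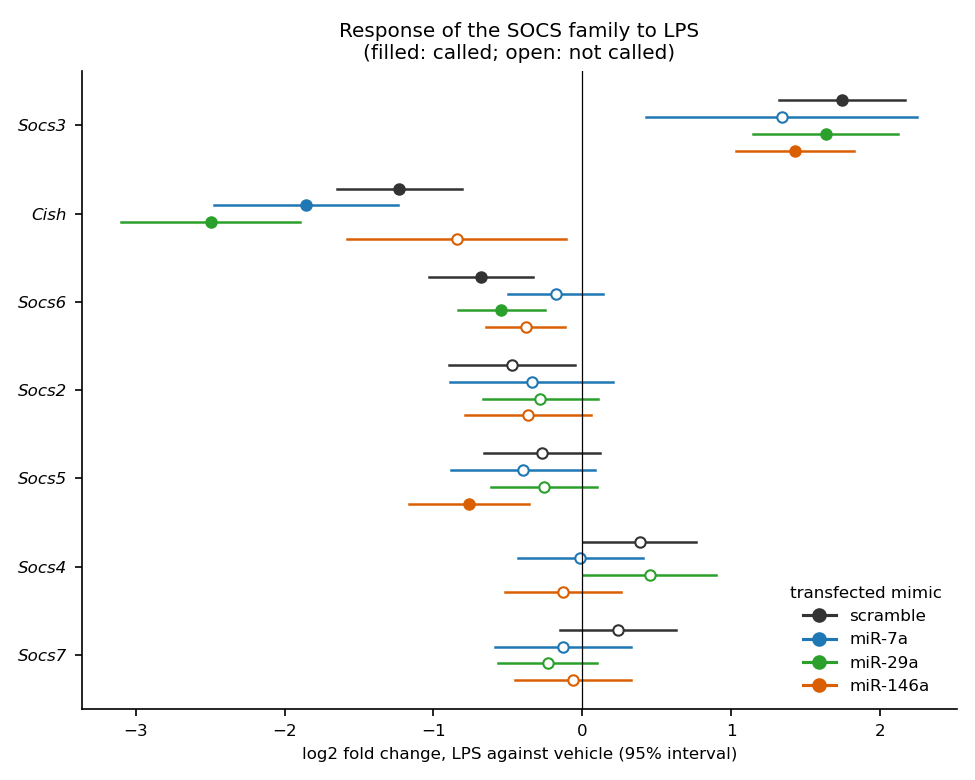
Log2 fold change of LPS against vehicle (x axis) for the 7 tested members (y axis) in cells with each mimic (colour), with 95% confidence intervals as lines. Filled points passed the test and open points did not. Socs3 lies to the right of 0 in all 4 settings, from 1.34 to 1.75, and Cish to the left in all 4, from -2.50 to -0.84.

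Across all mimics, Socs3 had a median of 56.4 CPM in the 16 LPS libraries (lowest 21.6, highest 95.9) and of 16 CPM in the 16 vehicle libraries (lowest 12.6, highest 31.4). The exception to the separation was LPS miR-7a replicate 1, which lay inside the vehicle range. Cish had a median of 8.37 CPM with LPS (4.03 to 23.4) and of 24.2 CPM with vehicle (13.1 to 46.0), and LPS miR-146a replicates 3 and 4 were the libraries that overlapped. Because both genes come from the same library, their ratio does not depend on library size. Per exon length, Socs3 was 2.02 ± 0.457 times as abundant as Cish with vehicle and scramble (SD, n = 4) and 16 ± 3.48 times with LPS and scramble. The ratio was highest with LPS and miR-29a, at 34.1 ± 10.5, and lowest among the LPS groups with miR-146a, at 8.36 ± 4.97. The vehicle groups with miR-7a, miR-29a and miR-146a stood at 1.11 ± 0.262, 1.98 ± 0.695 and 1.83 ± 0.540, and LPS with miR-7a at 12.2 ± 7.45. Vehicle miR-7a replicate 1, the library of that group that did not stand apart, was at 1.38. The 16 LPS libraries ran from 3.12 to 47.7 and the 16 vehicle libraries from 0.750 to 2.74, so the conditions did not overlap. The length joins all annotated exons of a gene, 2891 bases for Socs3 and 6419 for Cish, so the size of the ratio depends on it. In counts, without the length, the ratio ran from 0.711 to 1.18 with vehicle and scramble. With LPS and scramble it ran from 5.75 to 9.34 in counts. The ratio was formed after the values were seen and is given as a description with no test.

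**Figure D3:**
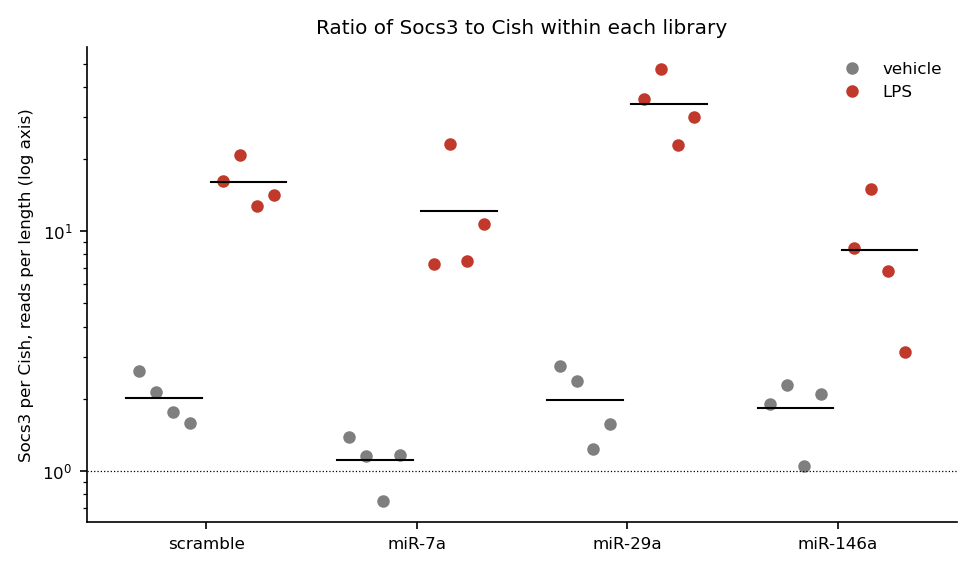
Ratio of Socs3 to Cish within each library, per exon length (y axis, log scale), by transfected mimic (x axis), with vehicle in grey and LPS in red. Dots are libraries and lines are group means (n = 4). The lowest LPS library, at 3.12, lies above the highest vehicle library, at 2.74.

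The interaction term, which tests whether the LPS response with a mimic differed from that with scramble, called no member. For miR-29a, 0.0167% of all genes passed, and the largest member term was that of Cish (log2FC difference = -1.25, SE 0.338, interval -1.96 to -0.54, unadjusted p = 0.00162 and adjusted p = 0.529 by limma-voom over 16 libraries). For miR-7a, 0.00844% of all genes passed, and Socs6 had the smallest unadjusted p, 0.0222 (difference = 0.52, interval 0.08 to 0.95, adjusted p = 0.831 by limma-voom). Without vehicle miR-7a replicates 2, 3 and 4 this difference was 0.63 (adjusted p = 0.9995). For miR-146a, 0% of genes passed, and the member nearest to the threshold was Socs5 (difference = -0.48, interval -0.99 to 0.02, adjusted p = 0.464 by limma-voom). Of the 7 members, 1, 1 and 0 had an unadjusted p under 0.05 with miR-7a, miR-29a and miR-146a. Over all genes these counts were 634 of 11852, 773 of 11959 and 1342 of 12005. edgeR and DESeq2 called no member in any of the 3. With the replicate number as a block, Cish passed in the miR-29a interaction (difference = -1.25, adjusted p = 0.0347 by limma-voom), as 1 of 17 genes. Same-numbered libraries of the 2 groups deviated together in each of the 4 comparisons that make up this interaction, but over all 24 pairs of its 4 groups the lowest r was 0.00412. Apart from that fit, a call lost or gained with a mimic was not shown to be a difference from scramble.

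The mimics were then compared with scramble under LPS, in 3 comparisons that share the 4 LPS scramble libraries. With miR-146a, Socs6 rose and Socs3 fell, 2 of 7 members, against 2.41% of all genes. Both Socs6 and Socs7 hold 1 site for the miR-146a seed. The level of Socs6 was 89.9, 88.6, 99.0 and 91.9 CPM with miR-146a, against the 40.9 to 51.8 CPM of scramble. The lowest miR-146a library lay above the highest scramble library, at a 2.00-fold difference (log2FC = 1.00, SE 0.114, interval 0.75 to 1.25, adjusted p = 0.00341 by limma-voom). This call held when any library was left out and in all 7 alternatives that kept all libraries, with adjusted p up to 0.00420. Socs3 was at 32.9 to 47.3 CPM with miR-146a and at 57.1 to 78.6 CPM with scramble. The groups did not overlap, and the level was 37.4% lower with miR-146a (log2FC = -0.67, SE 0.149, interval -1.0 to -0.35, adjusted p = 0.0419 by limma-voom). The Socs3 call was lost when any library but LPS miR-146a replicate 2 was left out, with adjusted p from 0.0652 to 0.110, and passed in 4 of the 7 alternatives, whose adjusted p ran from 0.00162 to 0.0799. Socs2 (log2FC = 0.48, adjusted p = 0.157 by limma-voom), Cish (0.27), Socs4 (0.24), Socs7 (0.04) and Socs5 (-0.03) did not pass.

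With miR-29a under LPS, Cish fell, 1 of 7 members, against 4.66% of all genes. The 4.03 to 6.39 CPM of the miR-29a libraries lay below the 8.32 to 11.2 CPM of scramble, and the level was 47.0% lower (log2FC = -0.92, SE 0.206, interval -1.37 to -0.47, adjusted p = 0.0306 by limma-voom). This call was lost when any library but LPS scramble replicate 2 or LPS miR-29a replicate 3 was left out, with adjusted p from 0.0517 to 0.0836. Over the 7 alternatives that kept all libraries the adjusted p of Cish ran from 0.00220 to 0.103, and 6 passed. Socs2 was at 12.4, 12.2, 13.2 and 10.6 CPM, above the 7.23 to 9.18 CPM of scramble, with a log2FC of 0.52 that missed the threshold (adjusted p = 0.0720 by limma-voom). Socs5 had a log2FC of 0.45 (adjusted p = 0.116 by limma-voom), while the Socs3 log2FC was 0.11 (interval -0.27 to 0.49, adjusted p = 0.768). The replicate numbers paired these libraries, and with the block both Socs2 (log2FC = 0.51, adjusted p = 0.0245) and Socs5 (log2FC = 0.46, adjusted p = 0.0328) passed beside Cish, while the genes called rose from 602 to 2516. Socs7, the member with sites for all 3 seeds, had a log2FC of -0.28 (interval -0.59 to 0.02, adjusted p = 0.271 by limma-voom).

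With miR-7a under LPS, Socs6 rose, 1 of 7 members, against 2.6% of all genes. Socs6 was at 69.0, 64.9, 63.6 and 67.0 CPM, a narrow range wholly above that of scramble, and 1.44-fold higher (log2FC = 0.52, SE 0.117, interval 0.27 to 0.78, adjusted p = 0.0407 by limma-voom). Its call was lost when any 1 of the 8 libraries was left out, with adjusted p from 0.0550 to 0.118, and without the filter on low counts (0.0821). Socs3 and Socs2 missed the threshold, at log2FC values of -0.72 (interval -1.30 to -0.14, adjusted p = 0.178 by limma-voom) and 0.51 (interval 0.14 to 0.88, adjusted p = 0.141). These libraries were also paired by number, and with the block Socs3 (log2FC = -0.62, adjusted p = 0.0197) and Socs2 (log2FC = 0.52, adjusted p = 0.0379) passed beside Socs6, while the genes called rose from 332 to 1991. Socs7 had a log2FC of -0.29 (interval -0.63 to 0.06, adjusted p = 0.383 by limma-voom).

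Under vehicle the mimics were again compared with the same 4 scramble libraries, and no member was called. With miR-7a, 0.0459% of all genes passed, and no member had an unadjusted p under 0.05, against 1347 of 10895 genes. No member was called without vehicle miR-7a replicates 2, 3 and 4 either. With miR-29a, 0.00877% of all genes passed, and again no member had an unadjusted p under 0.05, against 1185 of 11400 genes. edgeR and DESeq2 called no member in either. With miR-146a, 1.82% of all genes passed. Here 3 members, Socs6, Socs4 and Socs5, had an unadjusted p under 0.05 by limma-voom, against 2892 of 11504 genes. edgeR called none of them among its 285 genes, and DESeq2 called 2, Socs6 and Socs4, among 1194 genes where limma-voom called 209. The level of Socs6 was 117, 132, 123 and 104 CPM with miR-146a, above the 56.3 to 90.2 CPM of scramble in every library. Its log2FC of 0.68 (SE 0.167, interval 0.32 to 1.04, adjusted p = 0.0558 by limma-voom) just missed the threshold, and it passed without vehicle scramble replicate 1 (log2FC = 0.70, adjusted p = 0.0365). Over the 7 alternatives that kept all libraries its adjusted p ran from 0.000826 to 0.0534, and 4 passed. Socs4 had a log2FC of 0.71 (SE 0.220, interval 0.24 to 1.19, adjusted p = 0.0829 by limma-voom), or 0.87 without vehicle scramble replicate 1 (adjusted p = 0.0358).

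**Figure D4:**
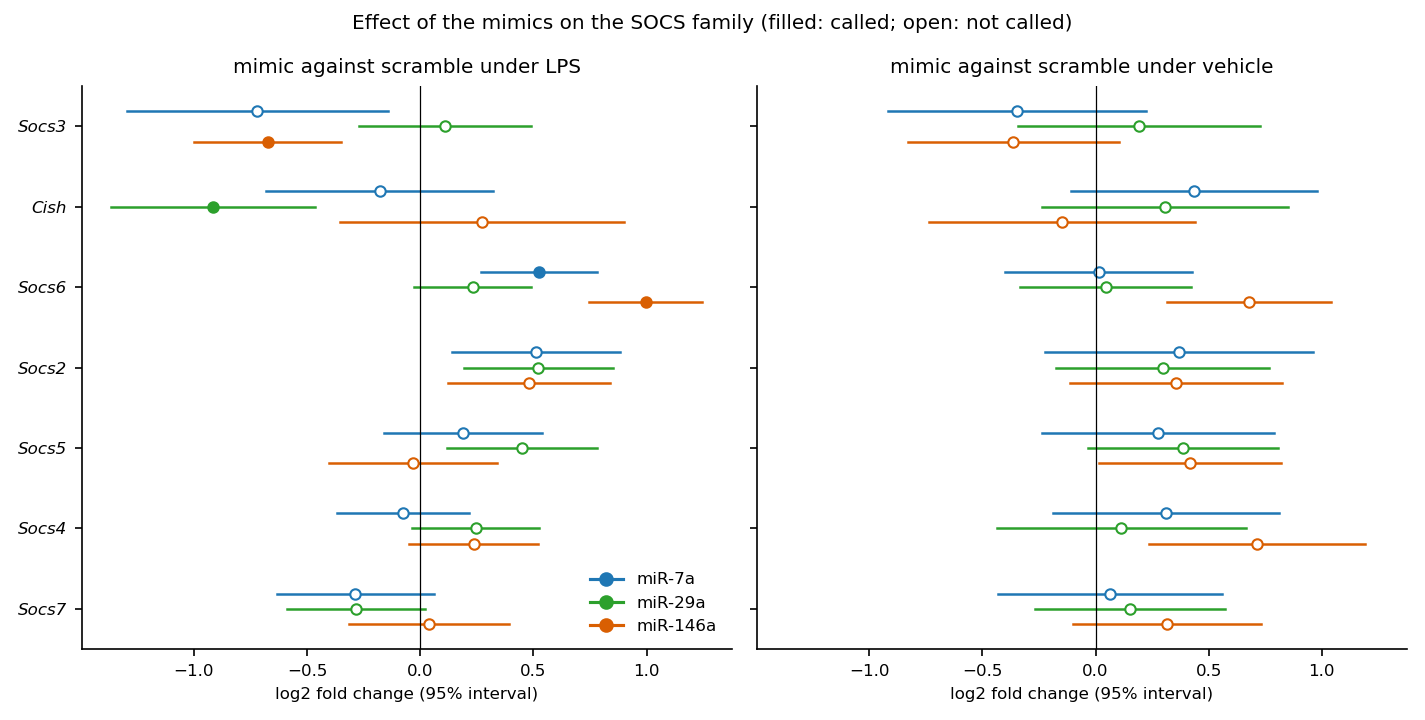
Log2 fold change of each mimic against scramble (x axis) for the 7 tested members (y axis) under LPS on the left and vehicle on the right, with 95% confidence intervals as lines and the mimics in colour. Filled points passed the test and open points did not. The miR-146a point of Socs6 lies at 1.00 under LPS and at 0.68 under vehicle, and all vehicle points are open.

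The group means of each member were also put in order, as a description with no test. For Socs3 the 4 LPS groups came first, from 70.5 ± 17.5 CPM with miR-29a to 40.4 ± 6.53 CPM with miR-146a (SD, n = 4). The step to the highest vehicle group, 23.7 ± 6.34 CPM with miR-29a, was the only pair of neighbours in that order whose libraries did not overlap. For Cish the 4 vehicle groups came first, from 30.9 ± 10.2 CPM with miR-7a to 20.4 ± 7.50 CPM with miR-146a, and no neighbours in the order were free of overlap. For Socs6 the vehicle miR-146a group at 119 CPM stood clear of the LPS miR-146a group at 92.3 CPM, and LPS with miR-7a at 66.1 CPM stood clear of LPS with miR-29a at 53.6 CPM. For Socs2 the LPS scramble group, at 8.36 ± 0.815 CPM, was below all others and did not overlap with its neighbour. The group means of Socs4 ran from 27.2 to 45.3 CPM, those of Socs5 from 14 to 23.7 CPM and those of Socs7 from 28.8 to 38.3 CPM, and in each of these genes every pair of neighbours overlapped.

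Socs1, the inhibitor of interferon receptors, gave 73 counts in all 32 libraries together and 0 counts in 12 of them. With scramble, the counts were 5, 0, 0 and 0 with vehicle and 0, 3, 3 and 3 with LPS. With miR-29a, the mimic whose seed has sites in its 3′ UTR, they were 1, 0, 9 and 2 with vehicle and 4, 7, 10 and 1 with LPS. With miR-7a they were 2, 0, 0 and 0 against 3, 3, 6 and 5, and with miR-146a 0, 2, 2 and 0 against 1, 0, 1 and 0. The highest level was 1.5 CPM. A count of 0 allows up to 3 counts, which is 0.323 to 3.96 CPM in the 12 libraries at 0 (counting error only). Socs1 did not reach the count filter and was left out of the tests. Without the filter it passed in none of the 13 comparisons, with adjusted p from 0.380 to 0.9986 by limma-voom.

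The genes that work with the SOCS family were read from lists chosen with earlier results known, and each count is to be set against the share of all genes called in the same comparison, given above. Among cytokine ligands of the JAK-STAT route, 3 of 19 were high enough to test, and their median log2FC with scramble was -0.22. Ebi3, a shared chain of interleukin-12 family cytokines, rose with LPS in all 4 settings, with log2FC values of 2.12 (miR-146a), 1.98 (miR-7a), 1.86 (scramble) and 1.44 (miR-29a). With miR-29a 1 of the 3 also fell, Osm, from 13.9 ± 4.44 CPM with vehicle to 7.06 ± 1.38 CPM with LPS (SD, n = 4). Of 17 tested cytokine receptors, 1 rose and 1 fell with scramble, where the median log2FC was 0.0056, against 0.0088 over all genes. Il6ra, the receptor subunit that brings interleukin-6 to gp130, fell with scramble (-1.24), miR-7a (-1.07) and miR-29a (-1.35), and Il15ra rose with scramble (0.97) and miR-29a (0.64). With miR-7a 1 receptor of 17 fell and 1 rose. The latter was Il13ra1, at 83.2 ± 6.37 CPM with vehicle and 139.5 ± 18.4 CPM with LPS (SD, n = 4). With miR-29a, 3 receptors rose and 6 fell, among them Csf2ra (-0.82), Lifr (-2.52) and Il10ra (-0.83), and with miR-146a none passed.

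Of the Janus kinases, 1 of 3 tested with scramble and 2 of 4 with miR-29a rose, and Jak2 rose with scramble (log2FC = 0.94) and miR-29a (0.77). Of the STAT factors read here, Stat2 and Stat3 rose in every setting, 2 of 5 tested with scramble, miR-7a and miR-29a and 2 of 4 with miR-146a, while 2 of 5 fell with miR-29a. Stat3, which carries the signal of gp130, had log2FC values of 0.86 (miR-7a), 0.71 (miR-146a), 0.70 (scramble) and 0.54 (miR-29a). Stat2, a factor of interferon signalling, had values of 1.39 (miR-29a), 1.24 (miR-7a), 0.84 (scramble) and 0.80 (miR-146a). Stat6 (-0.55) and Stat5b (-0.39) fell with miR-29a. Of the genes known to be induced by STATs none fell, and those that rose were 9 of 15 (miR-29a), 7 of 13 (scramble), 5 of 13 (miR-146a) and 3 of 13 (miR-7a). Their median log2FC was 0.70 with scramble, against 0.01 over all genes, with Isg15, an interferon-induced modifier, at 3.98 and Irf9, a partner of Stat2, at 1.46. Bcl3 did not pass with miR-7a, at 1.61, and passed with scramble (2.49), miR-29a (2.67) and miR-146a (1.95).

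**Figure D5:**
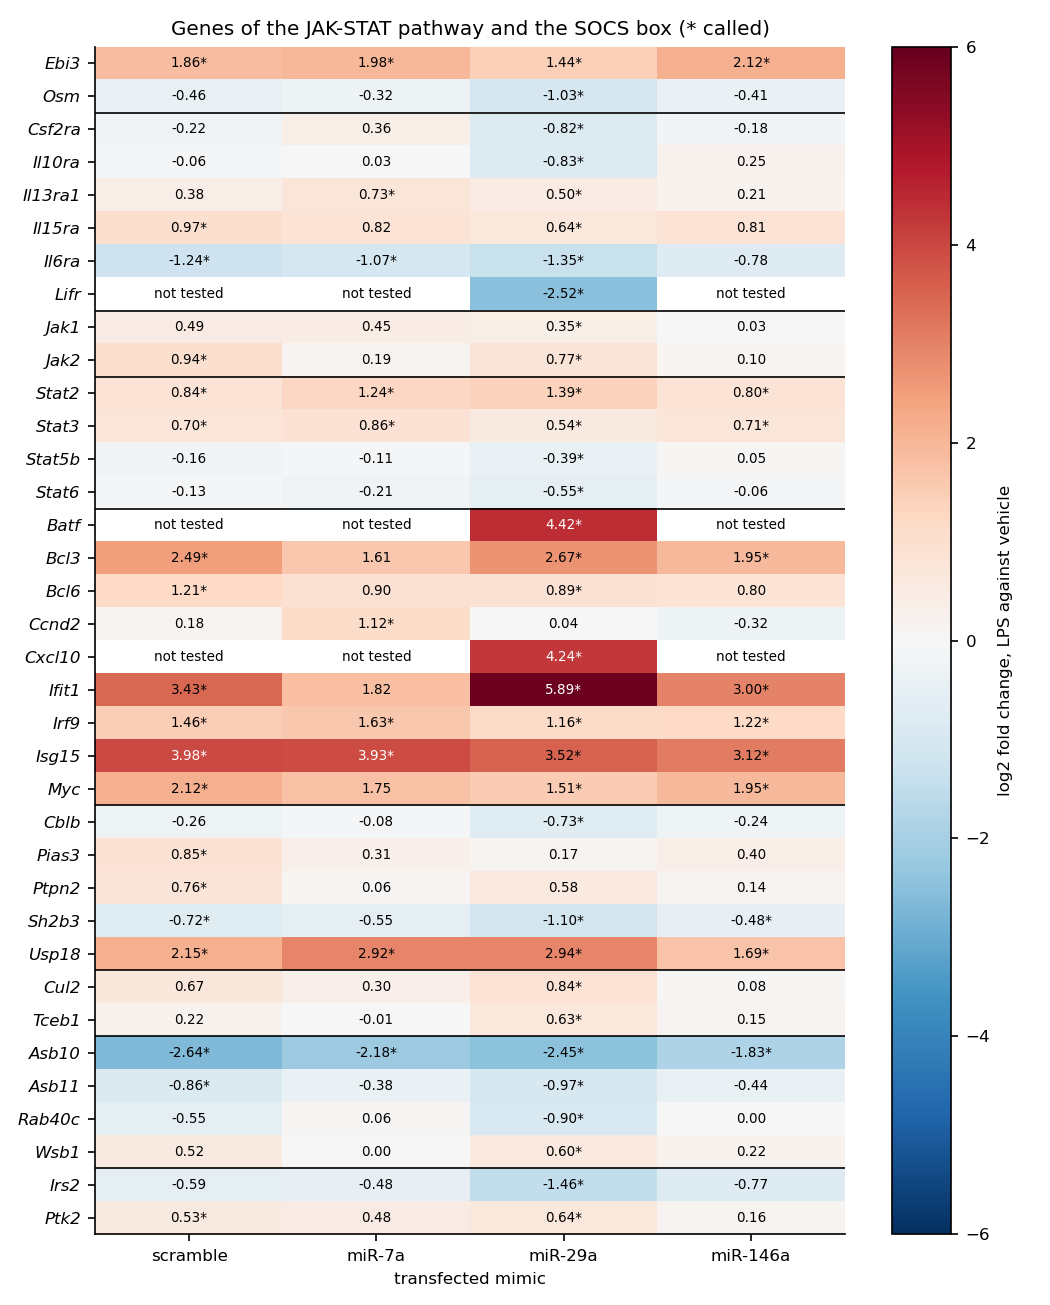
Log2 fold change of LPS against vehicle (colour and printed value) for genes of the JAK-STAT route and SOCS box partners (rows, in blocks by role) in cells with each mimic (columns). An asterisk marks a gene that passed the test and white cells were not tested. Usp18 is red in all columns, from 1.69 to 2.94, and Asb10 is blue in all columns, from -2.64 to -1.83.

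Of 12 other inhibitors of the route, 3 rose and 1 fell with scramble, and their median log2FC was 0.10. Usp18, which blocks the type I interferon receptor, rose in every setting, with log2FC values of 2.94 (miR-29a), 2.92 (miR-7a), 2.15 (scramble) and 1.69 (miR-146a). Ptpn2 (0.76) and Pias3 (0.85) also rose with scramble. Sh2b3, an adaptor that restrains Jak2, fell with scramble (-0.72), miR-29a (-1.10) and miR-146a (-0.48). The genes listed as ubiquitin ligase partners of SOCS box proteins had a median log2FC of -0.11 with scramble. None of the 7 tested was called with scramble, miR-7a or miR-146a, and with miR-29a Cul2 (0.84) and Tceb1, which encodes elongin C (0.63), rose. Of 14 other SOCS box proteins tested with scramble, none rose and 2 fell, and the median log2FC was -0.31. Asb10, an ankyrin repeat member, was called in every setting, at -2.64 (scramble), -2.45 (miR-29a), -2.18 (miR-7a) and -1.83 (miR-146a). Of 5 tested substrates, whose median log2FC with scramble was -0.02, 1 was called with scramble and 2 with miR-29a. Ptk2, the focal adhesion kinase, rose with scramble (0.53) and miR-29a (0.64), and Irs2, an insulin receptor adaptor, fell with miR-29a (-1.46).

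The same lists were read in the mimic comparisons under LPS. With miR-29a, the setting in which Cish was lowest, Stat2 (log2FC = 1.37), Jak2 (0.56) and Usp18 (1.2) rose, as did the STAT-induced genes Ifit1 (1.92) and Cxcl10 (3.54). Cul2, a cullin, also rose (0.44), 1 of 7 tested genes of the list of ligase partners. Il10ra (-0.95), Il7r (-1.73), Csf2rb2 (-0.67) and Myc (-0.99) fell, as did Asb11 (-0.71), 1 of 16 tested other SOCS box proteins. With miR-7a, Il13ra1 (0.59), Ptpn1, a phosphatase of Janus kinases (0.76), and Ccnd1 (0.67) rose, while Pim1 (-0.90) and Junb (-0.92) fell. With miR-146a, the setting in which Socs6 was highest, Il13ra1 (0.55), Cblb, a ubiquitin ligase (0.71), and Wsb1, a SOCS box protein (0.53), rose, while Ccnd2 (-0.96) and Ccnd1 (-0.88) fell. Under vehicle no gene of any list was called with any mimic.

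The genes most like each member were those with the highest Pearson r of log2(CPM + 0.5) over the 32 libraries, among 9688 genes with a mean of at least 5 CPM. The points share their libraries, depth and conditions, and r is given as a description. Socs3 was closest to Lrrc25 (r = 0.93), Osbpl3 (0.91) and Sbno2 (0.91). Cish was closest to Slc26a11 (0.87), Slc17a5 (0.86) and P2ry1 (0.86), and Socs6 to Rnf150 (0.87), Dmxl1 (0.85) and Ivns1abp (0.84). Socs2 was closest to Cacnb4 (0.84), Vwa5a (0.80) and Cd28 (0.77). Socs4 was closest to Ccnl1 (0.91), Stag2 (0.86) and Cald1 (0.86), Socs5 to Abcb1b (0.84), Prune2 (0.79) and Il12rb2 (0.78), and Socs7 to Kif21b (0.85), Gmeb2 (0.83) and Fam193b (0.81). No member was among the closest 3 of another. Within the family the strongest relation over the 32 libraries was between Socs3 and Cish (r = -0.77), followed by Socs3 and Socs6 (r = -0.69).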

How the data were processed

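BV-2 cells were profiled by total RNA sequencing (CORALL kit after ribosomal RNA depletion, single-end reads). The authors aligned and quantified the reads to GRCm38 with the nf-core rnaseq workflow, and the counting tool and annotation release are not given in the sources used here. The deposited table holds estimated counts per gene, in which decimal marks had been lost from part of the values. These marks were restored by comparing each value with the same gene in the other libraries. Of 590874 values above 0, 28.5% were given decimals back and 1.27% stayed uncertain (posterior under 0.9), and genes with such a value were left out of a comparison. Member values had posteriors of at least 0.990, and 15 values of Socs2, 11 of Socs6 and 5 of Cish, of 32 each, had lost decimals. Groups came from the sample titles. As in the study's methods, genes passing filterByExpr were scaled by TMM and each pair of conditions was fitted by itself. The study names a log transformation and a limma/edgeR model, and limma-voom was used here (limma 3.58.1, R 4.3.3) on the 8 libraries of each pair, or on 16 for interactions, with Benjamini-Hochberg adjustment over all genes. Levels are TMM-normalised CPM over all 32 libraries. The pipeline was also run on simulated counts. These followed the pattern of lost decimals that the restoration assumes and held no replicate effect, so they tested neither that pattern nor the pairing. Alternatives were edgeR 4.0.16, DESeq2 1.42.0 (counts rounded to whole numbers), median-ratio size factors, no filter, a replicate block, 1 fit of all 32 libraries, a posterior minimum of 0.99, values as deposited, and each library left out.

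Replicate numbers were taken to pair libraries where same-numbered libraries deviated together from their group means with r over 0.1 in every pair. This held for LPS against vehicle with scramble (lowest r 0.143) and miR-29a (0.221), for miR-7a (0.173) and miR-29a (0.239) under LPS, and for miR-29a under vehicle (0.144). The main fits held no replicate term in these comparisons either, so their calls do not use the pairing. The members, gene lists and naming rule (all members, called list genes up to 4 per list and comparison by adjusted p, and the 3 genes most like each member) were chosen with earlier results of these data known. The lists are not complete, and some genes of the route are not reported here. Sequences came from RefSeq (GRCm38.p6) and, for 3′ UTRs, the GENCODE annotation of GRCm38, with 4 of 8 promoters matched.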

Additional observations from a re-analysis of the deposited data

Results flagged for a closer look

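Each of the 8 members was screened in each of the 8 groups by Dixon's test for outliers. In 7 cases, 1 library of a group of 4 stood apart from the others, and all 7 were in vehicle groups. Chance marks about 1 group in 20 of continuous values. That rate does not apply to Socs1, whose counts are near 0: in 2 of its groups 3 libraries were at 0, so any library with a count is marked. Cish was at 46.0 CPM in vehicle miR-7a replicate 3, with the other libraries at 24.4 to 27.7 CPM. Socs7 was at 44.8 CPM in vehicle miR-7a replicate 4, with the others at 27.3 to 30.3 CPM. Both of these libraries belong to the 3 that were rich in structural RNA, whose part was not tested for single libraries. Socs5 was at 22.6 CPM in vehicle scramble replicate 1, with the others at 16 to 16.5 CPM. Socs4 was at 16.7 CPM in vehicle miR-29a replicate 2, with the others at 32.9 to 35.3 CPM. For Socs1 the highest libraries were vehicle scramble replicate 1 at 0.802 CPM, vehicle miR-7a replicate 1 at 0.363 CPM and vehicle miR-29a replicate 3 at 1.5 CPM, which rest on 5, 2 and 9 counts.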

How the results depend on the processing

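Of 665 values of single members recomputed with all libraries or without vehicle miR-7a replicates 2, 3 and 4, 623 kept their direction and their side of the threshold. A further 19 came to pass it, 10 no longer passed and 13 changed sign. Apart from the values as deposited, in which decimal marks were missing, the values that changed sign had a main log2FC of at most 0.15 in size. The cause of the changes below was not tested unless the setting itself gives it, such as fewer libraries. Median-ratio size factors moved no count of genes or members by over 1.5 times.

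The number of genes called for LPS against vehicle was 3178 (miR-29a), 2151 (scramble), 761 (miR-7a) and 536 (miR-146a). DESeq2 called 1242 with miR-7a and 817 with miR-146a. The replicate block gave 3642 with scramble, 4958 with miR-29a and 1127 with miR-146a, and 1 fit of all libraries gave 843 with miR-146a. Without the filter on low counts 7996 were called with miR-7a, and the values as deposited gave 108 with scramble. For each mimic against scramble under LPS (332 genes for miR-7a, 602 for miR-29a and 298 for miR-146a), DESeq2 called 759, 991 and 654 and the replicate block 1991, 2516 and 1761, while edgeR called 156 for miR-146a. Under vehicle miR-7a had 5 called genes, and the count was 18 by edgeR, 228 by DESeq2, 19 with no filter, 211 with the replicate block, 156 in 1 fit of all libraries and 23 at a posterior minimum of 0.99. For miR-29a under vehicle (1 gene) these were 2 by edgeR, 85 by DESeq2, 2 with no filter, 66 with the block and 79 in 1 fit. For miR-146a under vehicle (209) they were 1194 by DESeq2, 438 with no filter, 1382 with the block and 1487 in 1 fit. The interaction with LPS called 1 gene for miR-7a, 2 for miR-29a and 0 for miR-146a, and DESeq2 called 64, 16 and 13. With the block the miR-7a and miR-29a interactions called 37 and 17, with no filter miR-29a called 4, and miR-7a called 3 in 1 fit and 2 at the stricter posterior. Without vehicle miR-7a replicates 2, 3 and 4, a setting chosen after seeing the data, the miR-7a counts were 67 for LPS, 2 under vehicle and 2 for the interaction.

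Of the members, 3 were called for LPS with scramble and 0 with the values as deposited, where Socs2 stood at 6.14 and Socs6 at 3.87 on the log2 scale. With miR-7a, 1 was called, against 2 by edgeR, by DESeq2, with no filter, with the replicate block and in 1 fit, and 0 without the 3 vehicle libraries. With miR-146a 2 were called and 1 with no filter. For miR-7a under LPS (1 member) the count was 0 with no filter, 3 with the block and 2 in 1 fit, where Socs3 had a log2FC of -0.73 (adjusted p = 0.0435). For miR-29a under LPS (1 member) it was 3 with the block and 0 in 1 fit, and for miR-146a under LPS (2 members) it was 1 by edgeR, with no filter and in 1 fit. For miR-146a under vehicle (0 members) it was 2 by DESeq2 and in 1 fit and 1 with no filter and with the block. The block also gave 1 member, Cish, for the miR-29a interaction (0 otherwise), at -1.25 (adjusted p = 0.0347).

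The log2FC of Socs4 for LPS with miR-7a, -0.01, became 0.026 with no filter, 0.019 with the block, 0.0066 in 1 fit and 0.16 without the 3 vehicle libraries. That of Socs7 for LPS with miR-146a, -0.06, became 0.029 by edgeR and by DESeq2 and 0.041 with the block. That of Socs6 for miR-7a under vehicle, 0.01, became -0.059 with no filter and -0.12 without the 3 libraries. In the interactions Socs5 with miR-29a (0.03) became -0.0053 by edgeR, and Socs2 with miR-146a (0.10) became -0.0096 with the block.

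The rule for pairing was not met in LPS against vehicle with miR-7a or miR-146a. It was also not met in miR-146a against scramble, in miR-7a under vehicle or in the interactions. The lowest correlations in these comparisons ran from -0.10 to 0.076. Same-numbered libraries were the best match for 2 or 3 of 4 libraries in the pairs and 16 to 22 of 24 in the interactions. Missing the rule does not show that the libraries were unpaired, as the study's methods describe the replicates as independent experiments. In these comparisons the block gave Socs3 a log2FC of 1.13 (adjusted p = 0.0381) for LPS with miR-7a, and Socs6 -0.39 (adjusted p = 0.0445) for LPS with miR-146a and 0.68 (adjusted p = 0.0279) for miR-146a under vehicle.

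Leaving out each library in turn gave 2144 to 3609 called genes for LPS with miR-29a, 1089 to 2869 with scramble, 411 to 813 with miR-7a and 269 to 492 with miR-146a. Under LPS it gave 58 to 361 for miR-7a, 154 to 679 for miR-29a and 28 to 259 for miR-146a, and under vehicle 0 to 223, 0 to 1 and 0 to 1184. The interactions ran from 1 to 125, 0 to 3 and 0 to 83. Members called ran from 3 to 4 for LPS with scramble and from 1 to 2 for miR-7a, and were 3 for miR-29a and 1 for miR-146a. They were 0 for miR-7a, 0 to 1 for miR-29a and 1 to 2 for miR-146a under LPS, 0 to 2 for miR-146a under vehicle and 0 elsewhere. Values that changed sign ran, for LPS with miR-7a, from -0.14 to 0.084 (Socs4) and, for LPS with miR-146a, from -0.26 to 0.028 (Socs4) and from -0.12 to 0.074 (Socs7). Under LPS they ran from -0.056 to 0.21 for Socs3 with miR-29a, and with miR-146a from -0.11 to 0.034 for Socs5 and from -0.043 to 0.17 for Socs7. Under vehicle they ran with miR-7a from -0.10 to 0.092 (Socs6) and from -0.056 to 0.17 (Socs7), with miR-29a from -0.043 to 0.15 (Socs6) and with miR-146a from -0.43 to 0.056 (Cish). In the interactions they ran with miR-7a from -0.15 to 0.27 (Socs2) and from -0.23 to 0.051 (Socs5), with miR-29a from -0.33 to 0.054 (Socs3), from -0.10 to 0.20 (Socs4) and from -0.079 to 0.11 (Socs5), and with miR-146a from -0.048 to 0.26 (Socs2).

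The filter on low counts left Socs1 out of every comparison, and without it Socs1 passed in none. In the libraries where it was at 0, a count of 0 allowed 0.323 to 3.96 CPM. The 4 shallowest libraries were all in vehicle groups.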
